A study of Mus musculus with 9 samples.

Results

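The repeat copies described here are the MaLR elements and the ERVL elements other than MERVL in mouse embryonic stem cells (ESCs) with and without the maintenance DNA methyltransferase DNMT1. They were chosen from the repeat expression table by annotation alone: LTR elements of the family ERVL-MaLR, and LTR elements of the family ERVL whose name is neither MERVL-int nor MT2_Mm. They number 3521 of 38385 listed copies (9.17%), 2760 of them ERVL-MaLR and 761 ERVL, and carry 155 of 1042 repeat names. Of these names, 60 had 10 or more listed copies and held 3242 copies. The other 95 names held 279 copies, and 31 names had 1 copy each.

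The series profiled polyadenylated RNA of 3 lines of J1 ESCs at days 0, 2 and 4, 1 library per line and day. The lines were wild type (WT), a Dnmt1 knockout (1KO), and the same knockout carrying a transgene for catalytically inactive DNMT1 under the CAG promoter (1KO+1CI). Day 0 cells grew in LIF medium on mitomycin C-treated mouse embryonic fibroblast (MEF) feeders. For later days the feeders were reduced by plating, the ESCs formed embryoid bodies for 1 day and then grew attached in MEF medium without LIF, so the day also carries the change of culture and of feeder content. With 1 library per condition there are no replicate samples. A difference between 2 libraries therefore has no test, and the p-values given come from a fit over all 9 libraries with line and day as terms, which speaks only of these lines over these days.

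LTR retrotransposons consist of an internal part between 2 long terminal repeats (LTRs), which hold the promoter. Recombination between the LTRs leaves solitary LTRs behind, and most old copies are of that kind. ERVL elements are an ancient class of endogenous retroviruses. MaLR elements are thought to depend on them for transposition, since their internal part encodes no retroviral proteins. MLT1 elements are old and shared among mammals, whereas ORR1 and MT elements spread in rodents, and MT LTRs are known as promoters of oocyte and early embryo transcripts. MT2_Mm is the LTR of MERVL, the ERVL element that is active in the early mouse embryo. MT2A, MT2B and MT2C are older relatives of it.

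Levels are fragments normalised to feature length and library size (FPKM, per kilobase and per mapped fragments), which the authors computed for each repeat copy. The table gives a copy as its name and a running number (dup), which is used here as its label. The positions and sequences of the copies were not analysed here, and reads that start in a copy cannot be told apart from reads of a gene transcript that contains it. The table holds 0 values of 0, so a copy without reads in some library appears to have been left out. The whole steps of the values gave a depth of 20400000 to 28100000 reads per library, with the highest in 1KO at day 0. Dnmt1 was 48.5 to 80.4 FPKM in the WT libraries, 12.3 to 17.4 in the 1KO libraries and 129 to 315 in those of 1KO+1CI. The summed FPKM of 7 feeder fibroblast genes, collagens Col1a1, Col1a2 and Col3a1 among them, was 90.8 (WT), 176 (1KO) and 198 (1KO+1CI) at day 0, against 11.9 to 25.9 at the later days. The part of feeder RNA in the repeat values was not tested.

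The copies were weakly expressed. The median over copies of the mean FPKM was 1.08, against 1.85 for the other repeats, and 47.1% of them lay under 1 FPKM, against 26.0% of the others. Their median length implied by the steps was 285 bases, 622 for internal parts and 272 for LTRs. A read number could be recovered for 3248 copies, and 609 of these had a mean of 20 or more reads. The copies without a read number include some of the highest, such as MLT1A1 dup135, and are not counted. The 179 copies at 10 FPKM or more held 41.6% of the summed FPKM of the whole set. In each library the set held 2.74 to 3.52% of the summed repeat FPKM.

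A few copies dominated several names. The level of a name is its mean FPKM over listed copies, and in 17 of 60 names 1 copy held more than 1 part in 3 of the summed FPKM. MLT1A1 was the extreme, with 82.7% in the copy dup135. At the other end, the highest copy of MTA_Mm held 3.61%. The 6 copies with the highest mean were MLT1A1 dup135 (161 FPKM), LTR50 dup8 (90.4), MT2A dup204 (86.9), MT2B dup71 (72.5), MT2B2 dup105 (63.6) and MLT1J2 dup21 (56.6).

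Name levels differed by modest factors between libraries. Means over the 9 libraries ran from 0.813 FPKM for ORR1E-int to 16.2 for MLT1A1, with a median of 2.25 over the 60 names. Internal parts had a median of 1.84 and LTRs of 2.62. MLT1K followed MLT1A1 with 6.57, then MT2B with 5.39, MT2A with 4.82, ORR1G with 4.49 and MLT1D with 4.28. The highest library exceeded the lowest by a median factor of 1.60, from 1.22 to 3.74 for RMER10A.

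The first question is whether loss of DNMT1 changed the level of these elements. By group, the mean levels of listed copies in 1KO stayed close to WT, apart from RMER. Only copies with reads in every library appear to be listed. A copy silent in WT and active in 1KO could therefore not be seen. MT copies had a mean of 2.04 FPKM (WT), 1.82 (1KO) and 2.06 (1KO+1CI) at day 0. At day 2 the MT means were 2.43, 2.25 and 2.22, and at day 4 they were 1.89, 1.83 and 1.77. The 3 lines therefore lay within a narrow range at each day.

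ORR1 copies had means of 2.19, 2.07 and 2.27 FPKM at day 0 in the same order of lines, 2.68, 2.56 and 2.54 at day 2, and 2.06, 2.05 and 1.98 at day 4. For MLT1 copies the means were 5.49, 4.83 and 4.85 at day 0, 5.60, 5.27 and 5.04 at day 2, and 5.29, 5.19 and 5.30 at day 4. In both groups 1KO was slightly under WT at each day.

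The older MT2 LTRs behaved in the same way, with 4.38, 4.03 and 4.51 FPKM at day 0, 4.92, 4.46 and 4.26 at day 2, and 4.08, 3.72 and 3.74 at day 4. RMER was the group whose mean stood higher in the knockout lines, with 2.43 (WT), 3.38 (1KO) and 3.72 (1KO+1CI) at day 0. The median over RMER copies went the other way at day 0, with 1.28, 0.934 and 1.18 FPKM. At day 2 the RMER means were 3.64, 4.56 and 4.52, and at day 4 they were 2.15, 2.16 and 2.15, so the gap was closed. One RMER name, RMER15, carried the gap in the means.

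**Figure D1:**
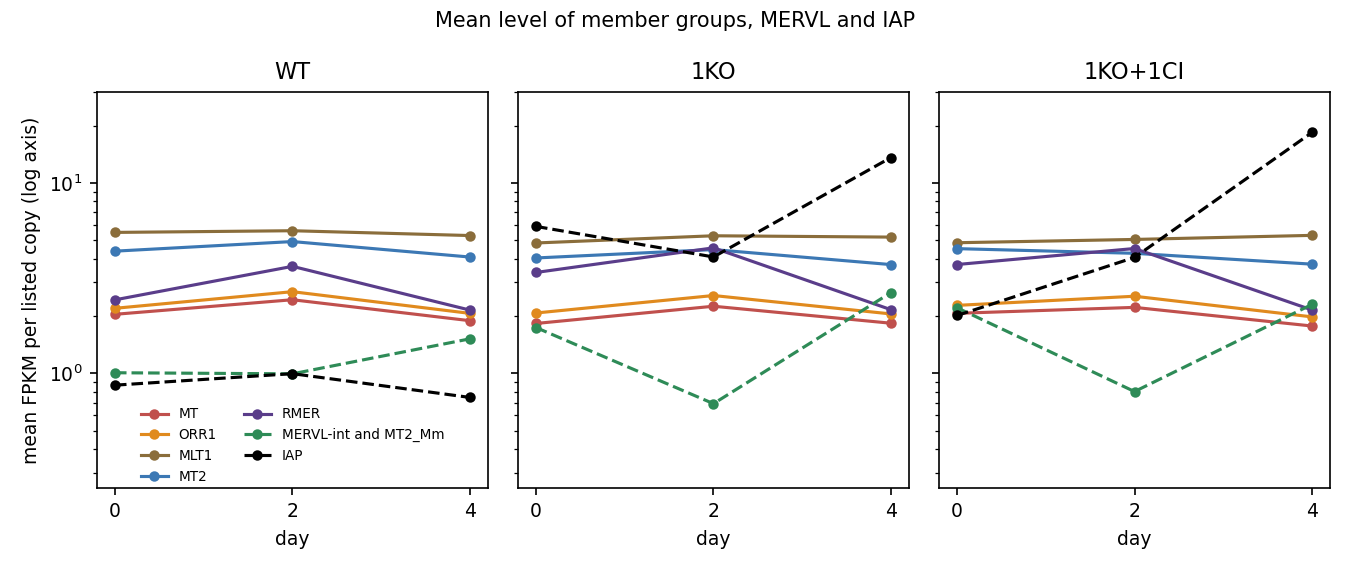
Mean FPKM per listed copy (log axis) by day in WT, 1KO and 1KO+1CI for the MT, ORR1, MLT1, MT2 and RMER groups, with MERVL and IAP as dashed lines; each point is 1 library. The member groups stay between 1.77 and 5.60, while IAP at day 0 is 0.865 in WT and 5.90 in 1KO, and at day 4 reaches 13.6 (1KO) and 18.4 (1KO+1CI).

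Copy by copy, the differences between 1KO and WT were those of repeats in general. Differences are on the log2(FPKM + 0.1) scale, which understates the change of low copies. At day 0, 394 copies (11.2%) were at least 2-fold higher in 1KO and 755 (21.4%) at least 2-fold lower, against 11.4% and 19.1% of all repeat copies. The median difference was −0.20, against −0.18 over all repeats. At day 2, 454 (12.9%) were higher and 511 (14.5%) lower, against 13.9% and 13.9%. At day 4, 587 (16.7%) were higher and 449 (12.8%) lower, against 17.2% and 12.2%. The shares of MaLR and older ERVL copies were thus near the background at each day.

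Other LTR elements moved further in the same libraries. IAP copies, young ERVK elements known to be silenced by DNA methylation, had median differences of 3.10, 2.38 and 4.59 between 1KO and WT at days 0, 2 and 4. MERVL-int and MT2_Mm had medians of 0.79, −0.49 and 0.81. ERVK copies outside IAP had medians of −0.17, 0.022 and 0.19, and the MaLR and older ERVL copies of −0.20, −0.082 and −0.021.

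**Figure D2:**
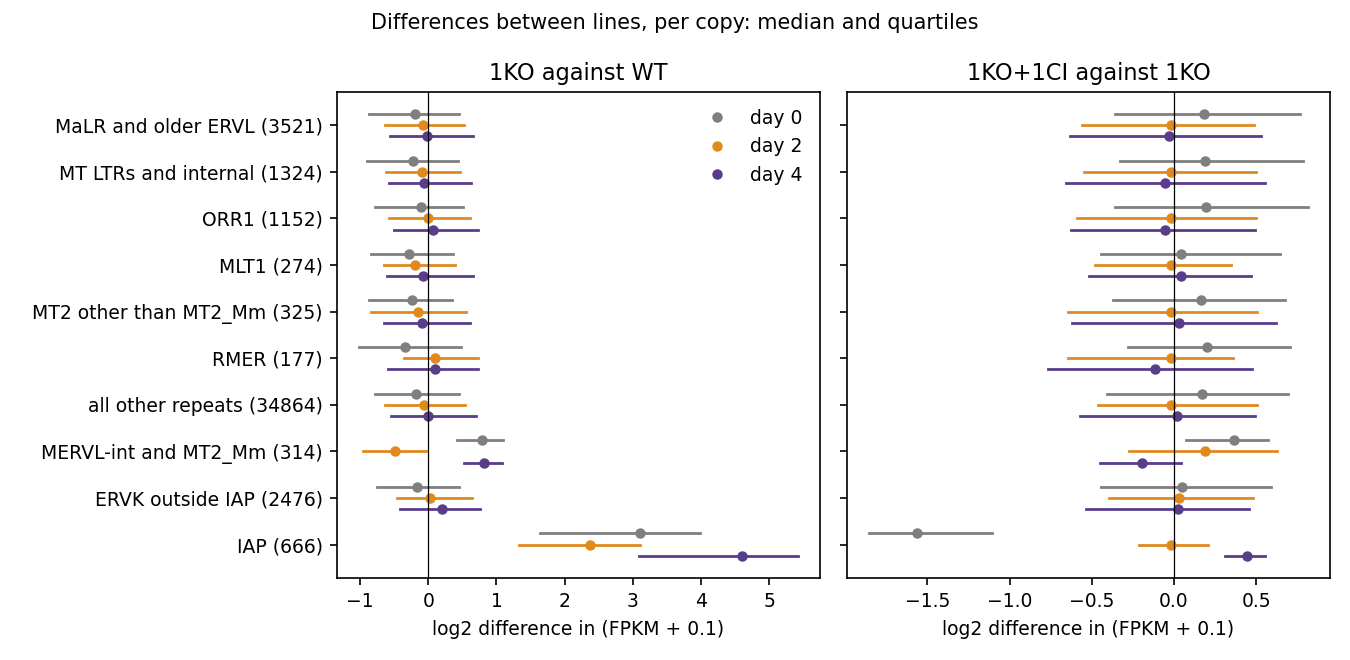
Median (point) and quartiles (line) over copies of the log2 difference in FPKM + 0.1 between 2 libraries, 1KO against WT (left) and 1KO+1CI against 1KO (right), at days 0, 2 and 4; the number of copies is in brackets. MT, ORR1, MLT1, MT2 and RMER medians lie between −0.35 (RMER, day 0) and 0.11 (RMER, day 2) in the left panel, whereas IAP medians reach 4.59.

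Internal parts and LTRs differed slightly. The median difference of 1KO from WT over 708 internal copies was 0.035, −0.043 and 0.15 at the 3 days. Over 2813 LTR copies it was −0.25, −0.096 and −0.072. Internal copies, which are longer and so have more reads at the same FPKM, were the higher of both kinds at each day. A part of read number in this gap was not tested.

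With the inactive transgene, the set moved up at day 0 as did repeats in general. Against 1KO, 618 copies (17.6%) were at least 2-fold higher in 1KO+1CI at day 0 and 268 (7.61%) lower, against 16% and 9.98% of all copies. At day 2 the counts were 410 (11.6%) and 451 (12.8%), against 11% and 10.4%. At day 4 they were 445 (12.6%) and 521 (14.8%), against 10.9% and 13.8%. The median was 0.18 at day 0, against 0.17 over all repeats. IAP copies went the other way at day 0, with a median of −1.56.

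No name crossed 2-fold between lines. Across the 9 comparisons of 2 lines at a day, the differences of the 60 names ran from −0.88 to 0.78. Of all 371 names with 10 or more copies, 1.08%, 0.809% and 2.16% were at least 2-fold higher in 1KO than in WT at days 0, 2 and 4, and for 1KO+1CI against WT at day 0 1.35% were higher and 0.27% lower. In 1KO the level was above WT in 16, 15 and 32 of 60 names at the 3 days. The median difference of the 60 names was −0.12, −0.088 and 0.0088, against −0.068, −0.044 and 0.035 over all 371 names. The share of all names above WT is not given.

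The fit over all libraries (limma, adjusted over 371 names) called 0 of 60 names between 1KO and WT, with 8 under an unadjusted p of 0.05, and 0% of all names. Between 1KO+1CI and 1KO it called 0 names, with 1 under the unadjusted threshold, and 0% of all names. Between 1KO+1CI and WT it called 0, with 6 unadjusted, and 0.539% of all names. These percentages of all names are at the adjusted threshold. The share of all names under the unadjusted threshold is not given, so the unadjusted counts cannot be set against repeats in general. The median fitted difference of the 60 names between 1KO and WT was −0.086, against −0.031 over all names. A missed threshold with 4 residual degrees of freedom does not show that the lines were alike.

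**Figure D3:**
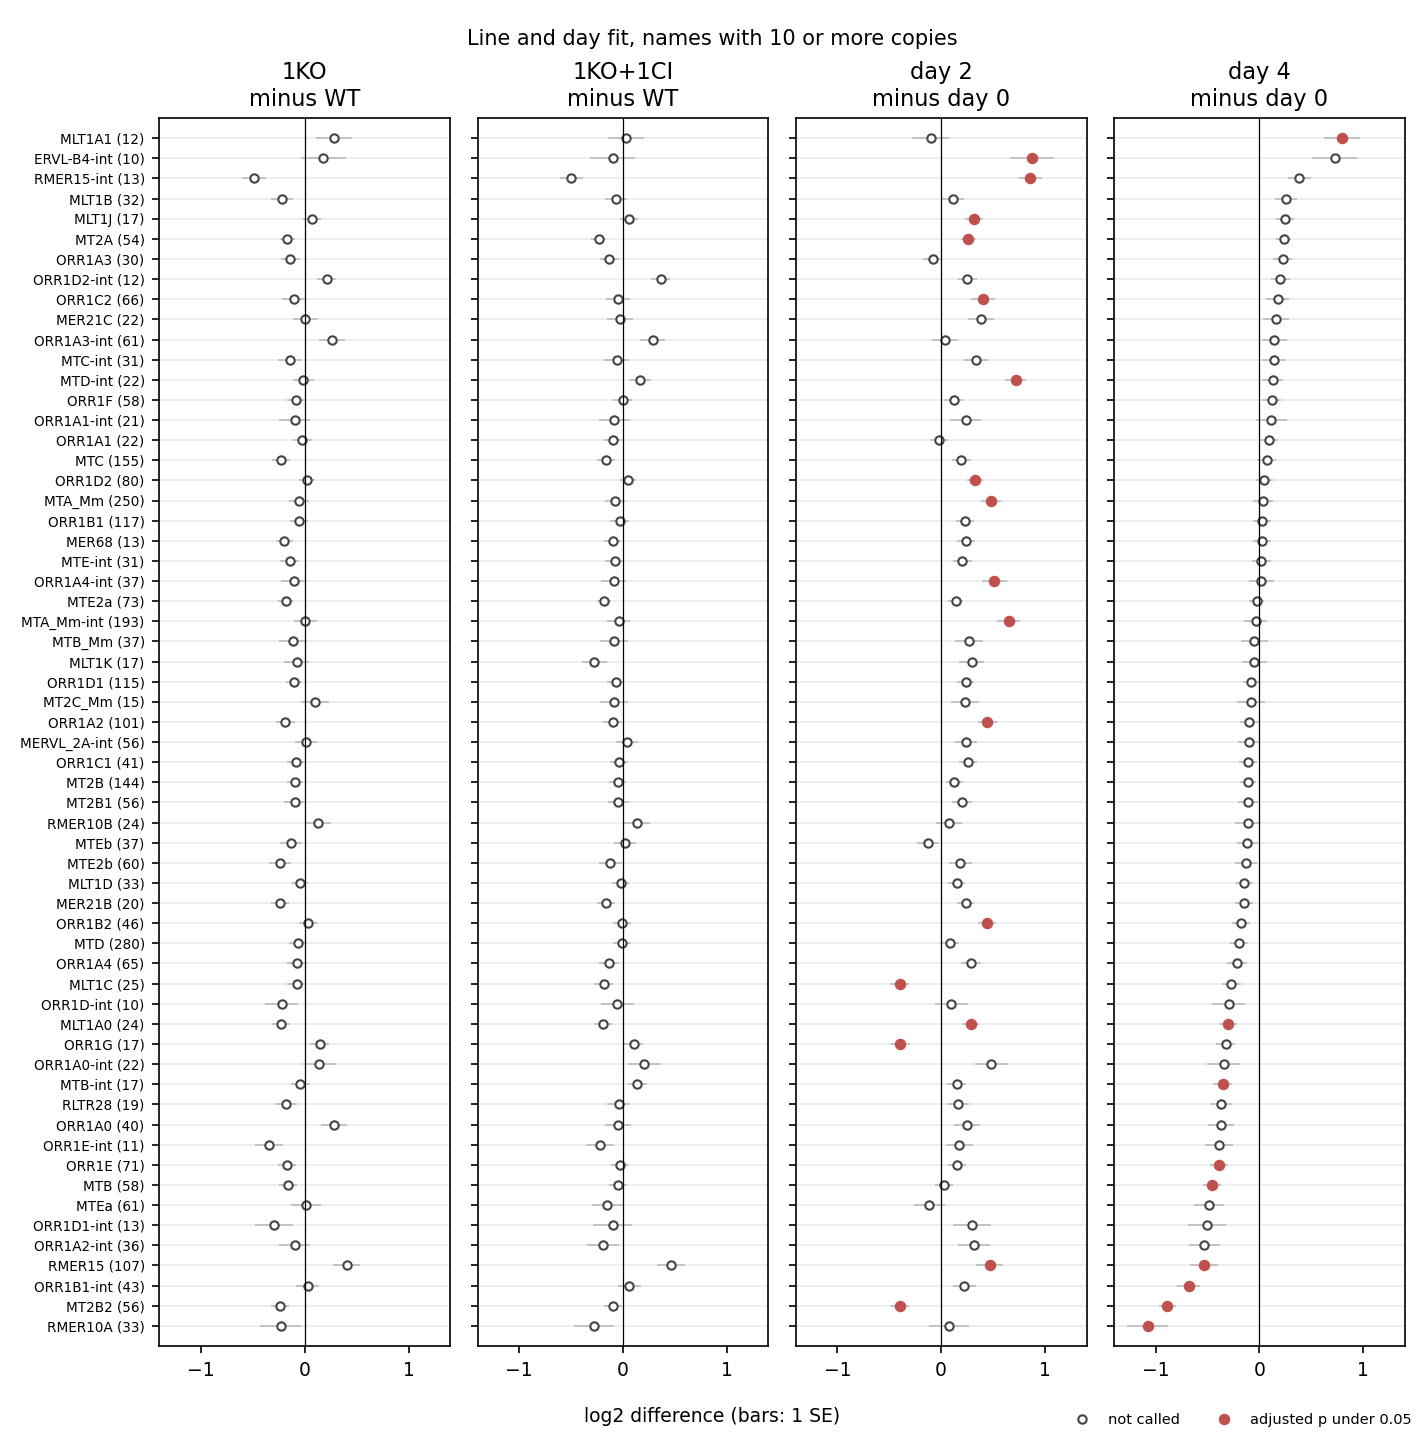
Fitted log2 difference with 1 SE for the 60 names with 10 or more copies (number of copies in brackets, ordered by the day 4 difference), for 2 line and 2 day contrasts; filled points have an adjusted p under 0.05. The 2 line panels hold 0 filled points, the day 2 panel 17 and the day 4 panel 9.

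The largest fitted rise between 1KO and WT was that of RMER15, an ERVL LTR with 107 listed copies. Its level was 2.79 FPKM (WT), 4.41 (1KO) and 4.86 (1KO+1CI) at day 0. At day 2 it was 4.25, 6.14 and 6.22, and at day 4 it was 2.59, 2.69 and 2.74. Both knockout lines were above WT at each day, by little at day 4. The fitted difference was 0.41 ± 0.13 (SE, limma adjusted p = 0.185) for 1KO and 0.46 ± 0.13 (adjusted p = 0.132) for 1KO+1CI. Without the day 4 libraries the values were 0.58 (adjusted p = 0.0241) and 0.66 (adjusted p = 0.0179).

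The internal part of the same element went the other way. RMER15-int (13 copies) was 2.24 FPKM (WT), 1.33 (1KO) and 1.36 (1KO+1CI) at day 0. It was 3.39, 2.69 and 2.89 at day 2 and 2.70, 1.98 and 1.77 at day 4. WT was highest at each day, with 1 library per line and day. This was the largest fitted fall, −0.49 ± 0.11 for 1KO (limma adjusted p = 0.12) and −0.50 ± 0.11 for 1KO+1CI (adjusted p = 0.0947).

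Next in the order of rises stood ORR1A0 and MLT1A1. ORR1A0, a rodent MaLR LTR with 40 copies, was 1.78 FPKM (WT), 2.76 (1KO) and 2.13 (1KO+1CI) at day 0, 2.53, 2.92 and 2.43 at day 2, and 1.80, 1.84 and 1.40 at day 4. Its level was highest in 1KO at each day, with a fitted difference from WT of 0.28 ± 0.13 (limma adjusted p = 0.357) and of 1KO+1CI from 1KO of −0.33 ± 0.13 (adjusted p = 0.971). For MLT1A1 the difference of 0.28 ± 0.17 (adjusted p = 0.558) rests on 1 copy: without its highest copy the value was −0.17.

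Among the falls, ORR1E-int (11 copies) was 0.995, 0.759 and 0.780 FPKM at day 0, 1.21, 0.858 and 0.847 at day 2, and 0.635, 0.531 and 0.700 at day 4, in WT, 1KO and 1KO+1CI. The fitted 1KO difference was −0.34 ± 0.13 (limma adjusted p = 0.272), and it turned to 0.20 when the median over copies was used. ORR1D1-int had −0.30 ± 0.19 (adjusted p = 0.558).

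Against WT, 1KO+1CI had its next highest differences in 2 internal parts of ORR1 elements. ORR1D2-int (12 copies) was 1.50, 1.72 and 2.15 FPKM at day 0, 1.87, 2.26 and 2.26 at day 2, and 1.81, 2.06 and 2.31 at day 4. WT was the lowest line at each day, and the fitted difference was 0.36 ± 0.09 (limma adjusted p = 0.0947), but −0.27 with the median over copies. ORR1A3-int (61 copies) was 0.918, 1.20 and 1.41 at day 0, 1.14, 1.21 and 1.23 at day 2, and 1.12, 1.47 and 1.30 at day 4, again with WT lowest, and its fitted difference was 0.29 ± 0.12 (adjusted p = 0.275). The lowest differences after RMER15-int were those of RMER10A (−0.28 ± 0.20, adjusted p = 0.517) and MLT1K (−0.28 ± 0.12, adjusted p = 0.282).

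The 6 names with most copies had small line differences. MTD (280 copies) was 2.31 FPKM (WT), 2.04 (1KO) and 2.41 (1KO+1CI) at day 0, and its fitted difference between 1KO and WT was −0.063 ± 0.088 (limma adjusted p = 0.79). MTA_Mm (250 copies) had −0.052 ± 0.097, its internal part MTA_Mm-int (193 copies) 0.0047 ± 0.11, MTC (155 copies) −0.23 ± 0.088, MT2B (144 copies) −0.093 ± 0.079 and ORR1B1 (117 copies) −0.054 ± 0.089, and limma called 0 of these 6 names between 1KO and WT (8 of 60 names under an unadjusted p of 0.05). MTA elements are the youngest of the MT group.

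Single copies were also fitted, over all 38385 copies. Between 1KO and WT, limma called 5 copies (0.142%), 4 higher and 1 lower, against 1.42% of all copies, 1.34% higher and 0.0756% lower. Of the 545 calls among all copies, 427 were rises of IAP copies. Between 1KO+1CI and WT it called 7 copies, 4 higher and 3 lower, against 1.36% of all copies, 1.25% higher and 0.112% lower. Between 1KO+1CI and 1KO it called 0 copies, against 0.00521% of all copies, 0.00261% higher and 0.00261% lower. In that contrast 126 copies (3.58%) had an unadjusted limma p under 0.05, and the share over all copies at that threshold is not given. Without the day 0 or the day 2 libraries 0 copies were called between 1KO and WT, and without the variance trend 1 copy was. Between 1KO+1CI and WT the calls without day 0, day 2 or day 4 numbered 1, 0 and 3.

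Of the 4 higher copies, 3 belonged to RMER15. Copy dup898 was 4.63 FPKM (WT), 22.6 (1KO) and 25.9 (1KO+1CI) at day 0, 6.81, 29.2 and 32.6 at day 2, and 2.70, 6.38 and 9.73 at day 4. Both knockout lines were above WT at each day. At day 0 this was 179 reads against 27, a depth-scaled ratio of 4.87 with an exact 95% interval of 3.24 to 7.60 for counting error only. The fitted difference was 1.85 ± 0.30 (limma adjusted p = 0.00628) for 1KO and 2.17 ± 0.30 (adjusted p = 0.00626) for 1KO+1CI.

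RMER15 dup909 was 6.79, 32.8 and 31.6 FPKM at day 0, 12.4, 40.0 and 47.3 at day 2, and 4.74, 8.42 and 11.4 at day 4. It showed the same order of WT under both knockout lines, with a fitted 1KO difference of 1.59 ± 0.30 (limma adjusted p = 0.0158). RMER15 dup892 was 1.12, 9.22 and 10.4 FPKM at day 0, 4.59, 9.70 and 10.8 at day 2, and 0.737, 3.57 and 3.04 at day 4. With only 6 reads in WT at day 0 its ratio there, 8.21, had an interval of 3.58 to 23.2, and the fitted difference was 2.04 ± 0.44 (adjusted p = 0.0373; 0.178 without day 4).

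A copy of the same name, RMER15 dup901, was called only in the contrast of 1KO+1CI with WT. It was 8.12, 27.9 and 32.1 FPKM at day 0 and 9.54, 37.2 and 35.9 at day 2. At day 4 it had dropped to 1.39, 1.92 and 3.58 in the 3 lines. The fitted difference of 1KO+1CI from WT was 1.73 ± 0.34 (limma adjusted p = 0.0244), that of 1KO was 1.39 ± 0.34 (adjusted p = 0.0852), and day 4 lay 3.13 ± 0.34 under day 0 on the log2 scale (adjusted p = 0.00111). The 1KO+1CI difference lost its call without the day 0 libraries (adjusted p = 0.278) and without the day 2 libraries (adjusted p = 0.286).

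The numbers of these copies lie close together. The longest stretch of RMER15 copies, in the order of their numbers, that were all higher in 1KO than in WT at day 0 reached from dup885 to dup921. It was defined after the values were seen and is given without a test. It holds 20 of the 107 listed copies and 58.8% of the summed RMER15 FPKM, and what the numbering means for position is unknown here. The run had a mean of 6.23 FPKM (WT), 16.7 (1KO) and 17.9 (1KO+1CI) at day 0, 12.1, 23.3 and 23.5 at day 2, and 4.83, 4.84 and 6.07 at day 4. In 1KO, 17 of its 20 copies were above WT at day 2 and 10 at day 4, while all 20 were at day 0 by the choice of the run. The summed FPKM of the feeder genes was also lowest in WT at day 0 (90.8, against 176 and 198), but it was at 11.9 to 25.9 at day 2, when the run was highest, and its part in the gap was not tested.

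The other 87 RMER15 copies had no such gap, which at day 0 is set in part by the choice of the run. Their mean was 2.00 FPKM (WT), 1.58 (1KO) and 1.86 (1KO+1CI) at day 0, 2.44, 2.19 and 2.25 at day 2, and 2.08, 2.20 and 1.97 at day 4. In 1KO 26, 38 and 46 of these copies were above WT at the 3 days. Over all 107 RMER15 copies, taken without the run, 46, 55 and 56 were above WT in 1KO at the 3 days. The median over all RMER15 copies had a fitted difference of −0.046.

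**Figure D4:**
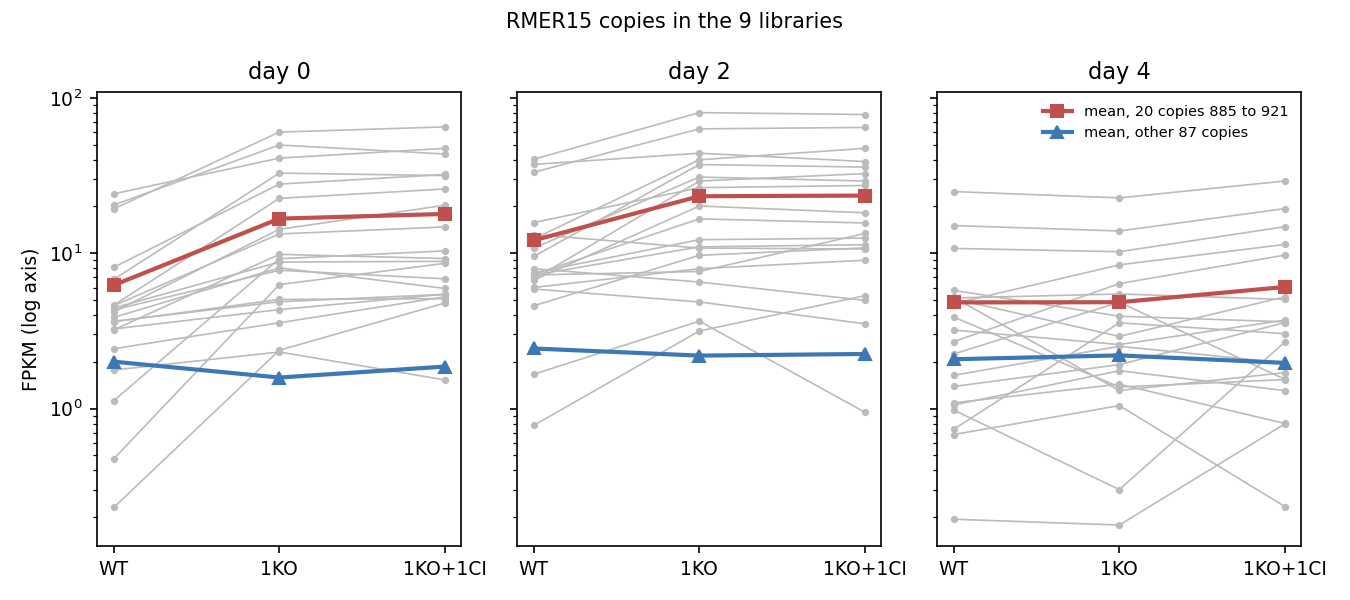
FPKM (log axis) of the 20 RMER15 copies numbered 885 to 921 (grey, 1 line per copy), their mean (squares) and the mean of the other 87 RMER15 copies (triangles) in the 3 lines at each day. The mean of the run goes from 6.23 in WT to 16.7 in 1KO at day 0 and from 4.83 to 4.84 at day 4, while the other copies stay between 1.58 and 2.44.

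The remaining calls were of 1 copy each. MT2A dup262, an older MT2 LTR, was lower in both knockout lines than in WT at each day. It was 6.69 FPKM (WT), 1.49 (1KO) and 1.34 (1KO+1CI) at day 0, 28.1, 8.97 and 12.7 at day 2, and 20.3, 6.77 and 3.15 at day 4. The day 0 ratio of 1KO to WT was 0.222 (exact 95% interval 0.110 to 0.421), and the fitted difference was −1.77 ± 0.38 (limma adjusted p = 0.0408) for 1KO and −2.01 ± 0.38 (adjusted p = 0.0204) for 1KO+1CI. Leaving out any 1 day lost the 1KO call, with adjusted p from 0.113 to 0.281.

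MTC dup659, a MaLR LTR, was also highest in WT at each day, without a call: 5.86, 2.02 and 0.790 FPKM at day 0, 22.7, 6.44 and 7.58 at day 2, and 18.2, 4.48 and 9.64 at day 4. Its fitted 1KO difference was −1.76 ± 0.43 (limma adjusted p = 0.0861). MLT1L dup53 was 57.6, 37.7 and 27.8 FPKM at day 0, 65.6, 31.7 and 35.9 at day 2, and 58.3, 34.8 and 28.3 at day 4, steady over days with WT highest. Its fitted difference was −0.99 ± 0.20 for 1KO+1CI (adjusted p = 0.0323) and −0.80 ± 0.20 for 1KO (adjusted p = 0.104). Leaving out any 1 day lost this call, with adjusted p from 0.186 to 0.228.

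Named after their values were seen, to complete the calls, are 2 weak copies. MT2A dup301 had 1 read in WT at each day, against 16, 9 and 10 reads in 1KO and 4, 8 and 3 in 1KO+1CI. Its day 0 ratio of 1KO to WT was 11.8, with an interval of 1.83 to 493, and its fitted 1KO difference was 2.82 ± 0.50 (limma adjusted p = 0.0109). ORR1A2 dup201 was 1.13 FPKM in WT and 0.139 in 1KO+1CI at day 0, 1.23 and 0.310 at day 2, and 1.58 and 0.163 at day 4, with a fitted difference of −2.24 ± 0.49 (adjusted p = 0.0458).

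**Figure D5:**
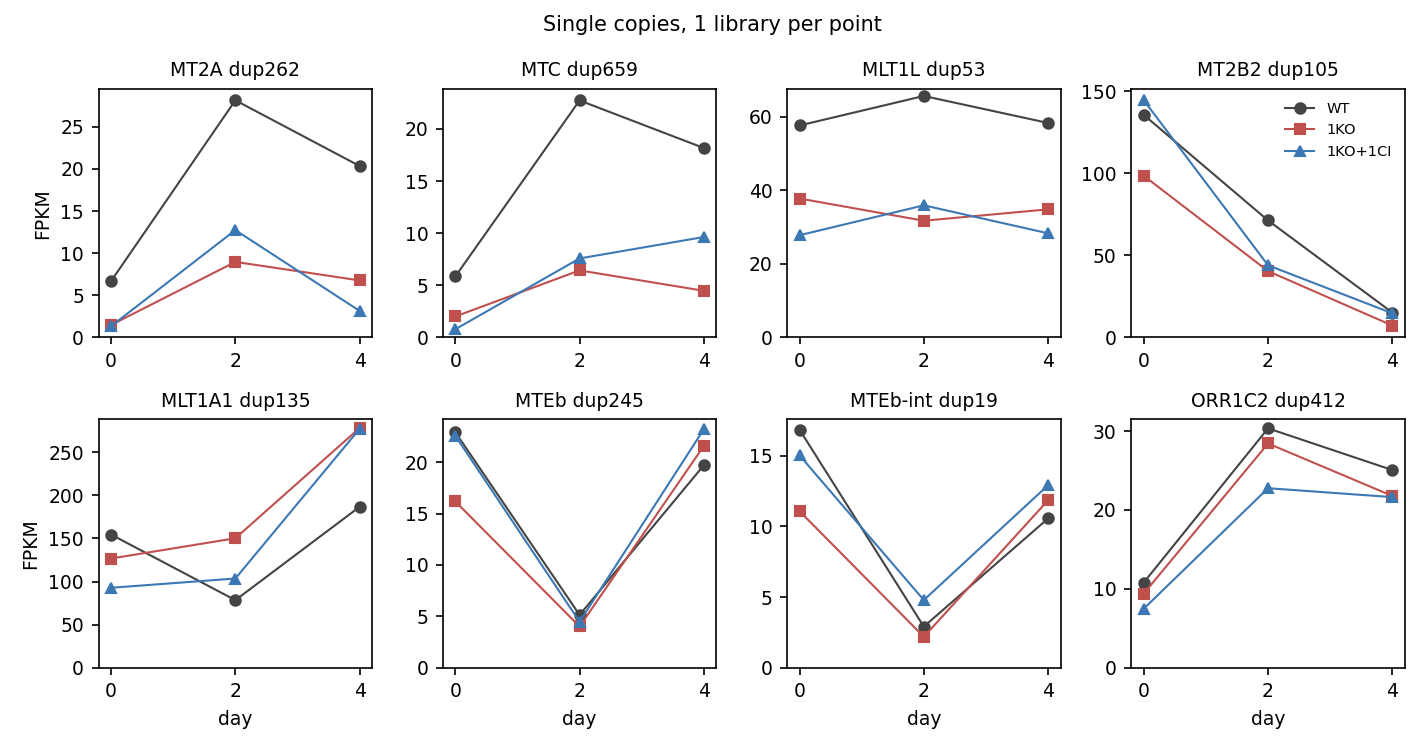
FPKM by day of 8 single copies in WT (circles), 1KO (squares) and 1KO+1CI (triangles), 1 library per point. MT2A dup262, MTC dup659 and MLT1L dup53 are highest in WT at each day, MT2B2 dup105 goes down with the day in the 3 lines, and MTEb dup245 and MTEb-int dup19 have their minimum at day 2.

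The second question is how the elements changed when the cells left the ESC state. More names were called between days than between lines. From day 0 to day 2, limma called 17 of 60 names, 14 higher and 3 lower, against 24.3% of all names, 21.8% higher and 2.43% lower. The fitted difference was positive in 52 of 60 names, including all 18 internal parts, and had a median of 0.23 against 0.16 over all names. Scaled to the median of repeat copies, with a factor of 1.19 for each day 2 library, 8 names were called, of which 2 rose: MTD-int and RMER15-int.

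The rises took in 5 of 18 internal parts and 9 of 42 LTR names. RMER15-int rose by 0.86 ± 0.11 (limma adjusted p = 0.0034), with the values already given. ERVL-B4-int, an ERVL internal part with 10 copies, was 0.929 FPKM (WT), 0.795 (1KO) and 1.02 (1KO+1CI) at day 0 and 1.94, 1.90 and 1.47 at day 2, with no overlap, and differed by 0.88 ± 0.22 (adjusted p = 0.0232). MTD-int was 0.620, 0.622 and 0.748 at day 0 and 1.18, 1.08 and 1.19 at day 2, again with no overlap, a rise of 0.72 ± 0.10 (adjusted p = 0.00352).

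MTA elements rose in both their parts. MTA_Mm was 1.24 FPKM (WT), 1.25 (1KO) and 1.35 (1KO+1CI) at day 0, 1.91, 1.81 and 1.76 at day 2, and 1.42, 1.33 and 1.21 at day 4. MTA_Mm-int was 1.12, 1.27 and 1.34 at day 0, 2.06, 2.03 and 1.93 at day 2, and 1.34, 1.21 and 1.10 at day 4. All 3 lines were higher at day 2 than at either other day, with rises from day 0 of 0.48 ± 0.10 (limma adjusted p = 0.0127) and 0.65 ± 0.11 (adjusted p = 0.00604). The other names that rose were MLT1A0, MLT1J, MT2A, ORR1A2, ORR1A4-int, ORR1B2, ORR1C2, ORR1D2 and RMER15, by 0.26 to 0.51.

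The 3 names that fell to day 2 were MLT1C, MT2B2 and ORR1G. MLT1C, a LTR shared among mammals, was 5.28, 4.73 and 4.80 FPKM at day 0, 4.20, 3.89 and 3.15 at day 2 and 4.05, 4.15 and 3.99 at day 4 in WT, 1KO and 1KO+1CI, with a difference of −0.40 ± 0.091 (limma adjusted p = 0.0201). The median over its copies gave 0.089. ORR1G was 5.17, 5.33 and 5.29 at day 0 and 4.01, 4.01 and 3.93 at day 2, a gap without overlap of −0.39 ± 0.092 (adjusted p = 0.0205). Without its highest copy the difference was 0.10.

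From day 0 to day 4 limma called 9 of 60 names, 1 higher and 8 lower, against 15.6% of all names, 7.55% higher and 8.09% lower. Without the day 2 libraries 4 names were called, and with the median over copies 0 (6 under an unadjusted p of 0.05). The riser was MLT1A1, at 15.5, 13.5 and 10.8 FPKM at day 0 and 18.4, 25.5 and 25.2 at day 4, with a difference of 0.79 ± 0.17 (limma adjusted p = 0.0223). It followed 1 copy: MLT1A1 dup135 was 154, 127 and 92.8 FPKM at day 0, 78.4, 150 and 104 at day 2, and 187, 278 and 277 at day 4. Its day 4 libraries were above all day 0 libraries, by 0.99 ± 0.23 (adjusted p = 0.0514), and without it the name gave −0.24.

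MT2B2 had the clearest fall among the called names by its adjusted p. This older MT2 LTR was 4.94, 4.14 and 5.11 FPKM at day 0, 4.05, 3.19 and 3.48 at day 2, and 2.66, 2.44 and 2.42 at day 4, with no overlap of days 0 and 4 and a difference of −0.89 ± 0.086 (limma adjusted p = 0.000742). Its copy dup105 was 136, 98.6 and 145 at day 0, 71.4, 40.5 and 44.0 at day 2, and 15.2, 7.31 and 14.7 at day 4. That copy fell by 1.31 ± 0.23 to day 2 (adjusted p = 0.046) and by 3.39 ± 0.23 to day 4 (adjusted p = 5.01e-05) on the log2 scale. Without it the name had a day 4 difference of −0.11 (adjusted p = 0.41).

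RMER10A had the lowest day 4 difference, −1.08 ± 0.20 (limma adjusted p = 0.011). It was 2.07, 2.32 and 2.51 FPKM at day 0, 3.33, 2.41 and 1.76 at day 2, and 1.21, 0.891 and 1.02 at day 4, with each day 4 library under each day 0 library. Without its highest copy the difference was −0.45 (adjusted p = 0.0693). ORR1B1-int (43 copies) was 1.97, 1.86 and 2.30 at day 0, 2.35, 2.39 and 2.43 at day 2, and 1.21, 1.35 and 1.14 at day 4, also without overlap, and fell by 0.68 ± 0.11 on the log2 scale (adjusted p = 0.00658). The other names that fell to day 4 were RMER15, MTB, ORR1E, MTB-int and MLT1A0, with differences from −0.53 to −0.30.

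Between days 2 and 4 limma called 33 of 60 names, 2 higher and 31 lower, against 36.4% of all names, 3.5% higher and 32.9% lower. Of the 31, 11 were internal parts and 20 LTRs. By group, 14 of 24 ORR1 names fell, 6 of 14 MT names, 3 of 5 MT2 names, 3 of 4 RMER names and 2 of 7 MLT1 names. The median fitted difference was −0.32, against −0.18 over all names. Scaling factors from repeat copies were 1.19 in the day 2 libraries and 0.936 to 0.978 at day 4. Repeat copies in general were thus lower at day 4. With medians over copies 4 names were called.

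For day 4 against the earlier days, more single copies were called than between lines, but not for day 2 against day 0. From day 0 to day 2 limma called 5 copies, 2 higher and 3 lower, against 0.214% of all copies, 0.115% higher and 0.099% lower. From day 0 to day 4 it called 46, 6 higher and 40 lower, against 1.6% of all copies, 0.469% higher and 1.13% lower. Without the day 2 libraries 26 were called. Between days 2 and 4 it called 130, 14 higher and 116 lower, against 4.06% of all copies, 0.602% higher and 3.46% lower. Without the day 0 libraries 67 were called, and with scaling to repeat copies 81.

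A dip at day 2 marked 2 copies of the MTE group. MTEb dup245, an LTR, was 22.9, 16.2 and 22.6 FPKM at day 0, 5.14, 4.02 and 4.48 at day 2, and 19.7, 21.6 and 23.2 at day 4, and the day 2 difference was −2.14 ± 0.28 (limma adjusted p = 0.0308). MTEb-int dup19, an internal part, was 16.8, 11.1 and 15.0 at day 0, 2.92, 2.19 and 4.79 at day 2, and 10.6, 11.9 and 12.9 at day 4, with −2.13 ± 0.33 (adjusted p = 0.0332). In both the 3 lines had their minimum at day 2, with no overlap, but the copies were chosen by their fitted day 2 fall.

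Rises from day 0 to day 2 were called for MT2A dup262 (2.58 ± 0.38, limma adjusted p = 0.0332) and ORR1C2 dup412. The latter, a rodent MaLR LTR, was 10.8, 9.41 and 7.49 FPKM at day 0, 30.3, 28.4 and 22.8 at day 2, and 25.1, 21.8 and 21.6 at day 4. Both later days were above day 0 in each line, by 1.55 ± 0.24 (adjusted p = 0.0332) and 1.31 ± 0.24 (adjusted p = 0.0187). The largest rises to day 4 were those of RMER15 dup277 (3.31 ± 0.68), MLT1N2 dup32 (2.80 ± 0.58), MTC dup659 (2.06 ± 0.43) and MTE2b dup381 (1.84 ± 0.38), with adjusted p from 0.0303 to 0.0348.

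The deepest falls to day 4 were those of 4 MaLR copies. MTEa dup901 was 15.8, 14.8 and 17.8 FPKM at day 0, 14.4, 5.08 and 3.65 at day 2, and 0.930, 0.214 and 1.68 at day 4, a difference of −4.28 ± 0.56 (limma adjusted p = 0.00258). MLT1C dup172 was 9.13, 19.7 and 33.3 at day 0 and 1.03, 0.236 and 2.11 at day 4, with −4.28 ± 0.54 (adjusted p = 0.00222). ORR1A4 dup117 and ORR1B1 dup543 had −4.22 ± 0.57 and −4.20 ± 0.49. Days 0 and 4 did not overlap in these 4 copies, but they were chosen by these falls, so this adds no support.

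Copies with the next lower number of the same name, looked up after the values were seen, were called as well. MTEa dup900 had a day 4 difference of −4.19 ± 0.64 (limma adjusted p = 0.00647) and MLT1C dup171 of −3.92 ± 0.63 (adjusted p = 0.00832).

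Genes known to repress ERVL and MaLR elements, such as the histone demethylase Kdm1a, the corepressor Trim28 and the methyltransferases Ehmt2 and Setdb1, were read in the same libraries. All 22 of the list were in the gene table. Their median log2 difference between 1KO and WT was 0.16, 0.088 and −0.069 at days 0, 2 and 4. At day 0, 1 of 22 was past 2-fold, Dnmt3l, a cofactor of the de novo methyltransferases, with 2.29. At day 2, 0 of 22 were, and at day 4, 1 of 22 was, Dnmt3a, with −1.11. Of all genes 11.2%, 8.69% and 7.7% were past 2-fold in either direction at the 3 days. Dnmt3l was 41.3 FPKM (WT), 203 (1KO) and 203 (1KO+1CI) at day 0. Of 20 genes of the 2-cell stage 14 were in the table, and their medians were 0.29, −0.42 and 0.26.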

How the data were processed

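RNA-seq values of 9 libraries (3 lines at 3 days, 1 library each) were read from the table of repeat copies and the table of genes. Both hold FPKM values that the authors deposited. According to the methods, reads were trimmed with Trim Galore, aligned to mm10 with HISAT2, handled with SAMtools and quantified with HOMER, whose repeat option gives 1 value per annotated copy. Versions, strand setting and the treatment of reads that map to several places were not given in the sources used here, and the last can move values between near-identical copies.

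The values are not read numbers, so no count test was used. The level of a name was its mean FPKM over listed copies, and differences were taken on log2(FPKM + 0.1). Differences between single libraries are given against a 2-fold bound with no test. For names with 10 or more copies (371) and for all 38385 copies, limma 3.58.1 in R 4.3.3 was fitted with line and day as terms (4 residual degrees of freedom) and a variance trend, with Benjamini-Hochberg adjustment over all names or copies and a threshold of 0.05. The copy fit was run on simulated data with known line effects and noise of the same size for all copies. Its outcome is not used here. The name fit and the contrasts between days were not tested in this way.

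For copies over 0.2 FPKM in every library, 93.8% of 32203 had values that were whole multiples of 1 step within 0.3%, against 0.292% after a random shift. Steps set against gene lengths gave the depth of each library, and 3248 of the 3521 copies had a recovered step. Where a read number is given, 1 step is taken as 1 read. Clopper-Pearson intervals at 95% cover counting error only.

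The members, gene lists and rules were chosen with earlier results of these data known. Named are the 6 highest and the 6 most numerous names, the 3 highest and 3 lowest names in each of 5 contrasts of the fit, the 6 highest copies, and up to 4 called copies in each direction with a mean of at least 1 FPKM. Other named copies were chosen after their values were seen, as stated beside them. Names and copies picked by their fitted values are likely to show no overlap between the days or lines compared, so this adds no support. Alternatives were other pseudocounts, 2 scalings, the median over copies, levels without the highest copy, a filter at 0.5 FPKM, left-out duplicate rows, no variance trend, left-out days and, chosen after seeing the data, a filter at 20 reads. Python 3.11.15, numpy 2.4.6, pandas 2.3.3, scipy 1.17.1 and matplotlib 3.10.9 were used.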

Additional observations from a re-analysis of the deposited data

Results flagged for a closer look

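In 4 named copies a pair of lines differed by at least 2-fold one way at 1 day and at least 2-fold the other way at another day. Each value rests on 1 library per line, and the difference between days was not tested. RMER15 dup277 was higher in 1KO than in WT by 1.93 on the log2 scale at day 4 (15.5 against 4.00 FPKM) and differed by −1.03 at day 0 (0.448 against 1.02). MLT1C dup172 was higher in 1KO by 1.10 at day 0 (19.7 against 9.13) and differed by −1.74 at day 4 (0.236 against 1.03). MTC dup659 was higher in 1KO+1CI than in 1KO by 1.09 at day 4 (9.64 against 4.48) and differed by −1.25 at day 0 (0.790 against 2.02). ORR1A4 dup117 was higher in 1KO+1CI than in WT by 1.19 at day 4 (0.494 against 0.160) and differed by −1.90 at day 2 (1.88 against 7.29).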

How the results depend on the processing

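No paired analysis was possible because each condition has 1 library and the labels give no replicate numbers. Leaving out each day in turn gave 0 to 1 called names for 1KO and for 1KO+1CI against WT (RMER15, without day 4) and as few as 4 for day 4 against day 0. For copies it gave 0 to 5 for 1KO against WT, 0 to 3 for 1KO+1CI against WT, as few as 26 for day 4 against day 0 and 67 for day 4 against day 2. Levels taken as medians over copies gave 4 called names for day 2 against day 0, 0 for day 4 against day 0 (limma; 6 under an unadjusted p of 0.05) and 4 for day 4 against day 2, and 1 name past 2-fold at day 0 for 1KO against WT (RMER15-int) and for 1KO+1CI against 1KO (ORR1D-int). Scaling to repeat copies gave 8 names for day 2 against day 0 and 81 copies for day 4 against day 2. Without a variance trend 1 copy was called for 1KO against WT, 0 for 1KO+1CI against WT, 0 for day 2 and 14 for day 4 against day 0. Among copies with a recovered mean of 20 or more reads, a smaller family of tests, the counts in these contrasts were 8, 12, 113 and 75. This filter also drops strong copies without a recovered read number, such as MLT1L dup53. The share of all copies called under it is not given, so these counts cannot be set against repeats in general.

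A pseudocount of 1, which shrinks low copies, gave 81 copies 2-fold higher and 168 lower for 1KO against WT at day 0, 96 and 142 at day 2, and 101 and 108 at day 4. For 1KO+1CI against 1KO it gave 97 and 21, 56 and 82, and 59 and 87. The shares of all repeat copies at this pseudocount are not given, so these counts cannot be set against repeats in general. The sign turned with the median over copies for ORR1E-int (0.20), MLT1A1 (−0.60) and RMER15 (−0.046) in 1KO against WT, for MLT1K (0.0076) and ORR1D2-int (−0.27) in 1KO+1CI against WT, for MLT1C (0.089) and MT2B2 (0.11) at day 2, and for MLT1A1 (−0.19) at day 4. Without the highest copy it turned for MLT1A1 (−0.17 in 1KO against WT and −0.24 at day 4), ORR1D1-int (−0.013 in 1KO+1CI against 1KO), MT2B2 (0.092) and ORR1G (0.10) at day 2. Leaving out each day in turn, ORR1D1-int in 1KO+1CI against 1KO ran from −0.091 (without day 0) to 0.35, and RMER10A in 1KO+1CI against WT from −0.55 to 0.022 (without day 2). The cause of these changes was not tested. The other values for names and copies kept their direction, and of these 64 lost a call and 4 gained one. A further 463 values stayed the same: they kept their side of the threshold or, for the median difference over member copies, lay within the interval of the main median. The 12 values that moved were such medians outside that interval, and the sign of the medians was not compared. Over copies with a recovered read number the median was 6 to 10 reads per library. Most of these copies cannot show a 2-fold difference between 2 libraries.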

Other observations

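The genes with the profile most like that of a copy were looked up after the copies' values were seen, by Pearson's r over the 9 libraries among 4618 genes. The libraries are shared by both sides, so the values are a description. The mean of the RMER15 run was most like Gm10324 (r = 0.993), Dnmt3l (0.991) and Zfp981 (0.988), followed by Zfp229 and Zfp534. Zfp981, a zinc finger gene at chr4:146502027-146539395 (mm10, GENCODE M21), was 12.4 FPKM (WT), 50.5 (1KO) and 57.5 (1KO+1CI) at day 0, 25.7, 69.6 and 64.3 at day 2, and 5.82, 8.18 and 8.02 at day 4. Like the run, it was higher in both knockout lines at days 0 and 2 and low at day 4. For RMER15 dup892 the 3 most similar genes, Zfp992, Zfp600 and Zfp991, are zinc finger genes on the same chromosome, and Zfp600 was first or second for dup898 and dup909. Whether the copies lie in or near these genes was not tested.

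For the other named copies the best of the 4618 genes had an r of 0.902 (MT2A dup204, with Atp8b1) to 0.995, so that a high r alone says little. MLT1A1 dup135 was most like Scd2 (r = 0.995), a stearoyl-CoA desaturase, which was 112 FPKM (WT), 88.9 (1KO) and 70.5 (1KO+1CI) at day 0 and 134, 207 and 186 at day 4. MT2B2 dup105 was most like Fbxo15 (0.994), a gene expressed in pluripotent cells. MTEb-int dup19 was most like Zscan4b (0.987), a gene of the 2-cell stage, and ORR1C2 dup412 had an r of 0.981 with Dusp6, a phosphatase induced by ERK signalling.

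Some copies lost levels at day 4 in every line. MTD dup1654 was 75.6 FPKM (WT), 72.3 (1KO) and 103 (1KO+1CI) at day 0, 47.7, 54.6 and 56.1 at day 2, and 15.6, 26.8 and 27.6 at day 4. ORR1E dup966 was 35.8, 29.5 and 40.7 at day 0, 40.8, 15.6 and 10.1 at day 2, and 2.32, 4.61 and 1.10 at day 4, so that at day 2 only WT was still at its day 0 level. RMER10A dup185 was 20.1, 42.4 and 44.1 at day 0, 67.1, 34.9 and 25.1 at day 2, and 7.88, 2.85 and 6.53 at day 4. These copies were picked after their values were seen.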
